A study of Mus musculus with 20 samples.

Results

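The mitochondrial ribosomal protein genes are the genes whose symbol starts with Mrpl or Mrps followed by a digit, with 6 names that carry -ps left out. By this rule 78 of the 56805 genes in each count table are members, 49 with large subunit names (Mrpl) and 29 with small subunit names (Mrps). Their RNA levels were measured by poly-A RNA sequencing of white adipose tissue from 20 mice, 1 library per mouse. For 10 weeks, 4 groups of 5 mice were fed either chow or a high-fat diet, and were given to drink either water or Tibetan tea, a fermented dark tea, as an extract in water. The groups are called chow water, chow tea, high-fat water and high-fat tea, and all of them had free access to food and drink under a light and dark cycle of 12 hours each. Strain, sex, age, adipose depot and tea dose are not stated in the labels used here.

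Mitochondrial ribosomes translate the mRNAs of mitochondrial DNA, which encode core subunits of the respiratory chain and the ATP synthase. Their RNAs come from mitochondrial DNA, while every ribosomal protein is encoded in the nucleus, made in the cytosol and imported. Some of these proteins have counterparts in bacterial ribosomes and others occur only in mitochondria. In white fat cells, mitochondria supply precursors and energy for lipid synthesis and burn fatty acids. As background, the products of Mrps30 and Mrps18a sit in the large subunit despite their names, and the Mrps36 product is no longer counted as a ribosomal protein.

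Reads in genes numbered 53047057 to 93314761 per library, of which the members took between 0.133% and 0.286%. Of the 78 members, 77 passed the filter on low counts, with 214 to 10282 reads per gene and library. Mrpl53, a large subunit gene of mitochondria-specific type, had 0 reads in all 20 libraries, and 88.0% of its exonic bases also lie in the exons of Gm42688 on the same strand. Exons of 33 members overlap another gene, which for 28 lies on the opposite strand, and in 10 members the shared part exceeds 20% of the exonic length. Per the file headers, counting used no strand and no option for overlapping genes, so reads in shared bases cannot be told apart and, by the tool's default, went to neither gene. The counts of such members rest on their other bases, and the 0 of Mrpl53 says nothing about its expression. Levels are given as CPM, the counts of a gene scaled to a common library size by trimmed means of M values, and a gene is called when its adjusted p (edgeR quasi-likelihood test, Benjamini-Hochberg over 21306 genes) is below 0.05.

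All 10 adipocyte markers were detected in every group and took 0.965% to 5.52% of reads per library. In 5 libraries, markers of another organ took over 1% of reads: pancreas in chow water replicate 1 (32.5%), epididymis, seminal vesicle and testis in high-fat water replicate 4 (4.48%), skeletal muscle in replicate 5 of high-fat water (3.12%) and replicate 1 of high-fat tea (3.43%), and kidney in high-fat tea replicate 4 (2.60%). In another 4 libraries such markers took 0.455% to 0.900%. Member counts in the diet and tea comparisons are given with and without these libraries. In bulk tissue, fewer cells of a type and less RNA per cell cannot be told apart.

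Promoter sequences are shown for the 3 genes called in both diet and tea comparisons (Mrpl9, Mrpl45 and Mrps30) and for Mrpl30 and Mrpl17, which were called lower on the high-fat diet. They are taken from RefSeq on GRCm38.p6, cover 250 bases before to 50 bases after the gene's start, and run 5′ to 3′ in the direction of the gene. Mrpl9 lies on the plus strand at chr3:94443086-94443385, Mrpl45 on the plus strand at chr11:97315466-97315765, Mrps30 on the minus strand at chr13:118387203-118387502, Mrpl30 on the plus strand at chr1:37890227-37890526 and Mrpl17 on the minus strand at chr7:105811038-105811337. Capitals mark matches to a motif of NRF1, a transcription factor of nuclear genes for mitochondrial proteins.
Mrpl9: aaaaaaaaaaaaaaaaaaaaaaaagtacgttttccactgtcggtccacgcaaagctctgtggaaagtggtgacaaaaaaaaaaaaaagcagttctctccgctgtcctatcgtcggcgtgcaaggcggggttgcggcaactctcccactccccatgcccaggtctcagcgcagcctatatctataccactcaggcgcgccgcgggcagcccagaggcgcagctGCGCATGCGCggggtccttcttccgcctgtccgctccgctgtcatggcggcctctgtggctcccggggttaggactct
Mrpl45: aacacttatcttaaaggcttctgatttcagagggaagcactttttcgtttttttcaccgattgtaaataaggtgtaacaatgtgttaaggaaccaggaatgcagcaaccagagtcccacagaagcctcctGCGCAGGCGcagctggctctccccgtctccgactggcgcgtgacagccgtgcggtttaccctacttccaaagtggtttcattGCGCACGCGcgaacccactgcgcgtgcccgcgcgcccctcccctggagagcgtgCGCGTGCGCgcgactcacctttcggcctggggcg
Mrps30: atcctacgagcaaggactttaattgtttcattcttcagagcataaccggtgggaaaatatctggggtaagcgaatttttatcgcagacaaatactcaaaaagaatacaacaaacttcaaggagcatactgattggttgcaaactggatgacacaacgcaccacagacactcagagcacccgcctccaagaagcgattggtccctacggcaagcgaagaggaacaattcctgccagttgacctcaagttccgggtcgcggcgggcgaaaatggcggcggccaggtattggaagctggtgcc
Mrpl30: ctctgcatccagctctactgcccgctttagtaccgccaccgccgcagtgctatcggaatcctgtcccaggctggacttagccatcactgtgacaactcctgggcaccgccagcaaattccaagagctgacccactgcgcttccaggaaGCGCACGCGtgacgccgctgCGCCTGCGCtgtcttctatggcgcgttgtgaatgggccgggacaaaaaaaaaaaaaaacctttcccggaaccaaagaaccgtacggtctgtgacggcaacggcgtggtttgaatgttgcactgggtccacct
Mrpl17: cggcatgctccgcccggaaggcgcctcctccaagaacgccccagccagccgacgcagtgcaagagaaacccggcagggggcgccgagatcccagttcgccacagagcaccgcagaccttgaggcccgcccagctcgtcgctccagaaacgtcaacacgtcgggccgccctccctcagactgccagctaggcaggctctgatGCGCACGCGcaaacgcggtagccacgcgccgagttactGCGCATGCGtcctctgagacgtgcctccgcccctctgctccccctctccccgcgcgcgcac
The motif was GCGCANGCG, searched on both strands, and its palindromic core lets forward and reverse matches overlap, as in Mrpl9, where 2 matches share all but 1 base at each end. The Mrpl45 promoter holds 3 matches, those of Mrpl30 and Mrpl17 hold 2 each, and that of Mrps30 holds none.

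Promoters were found for 69 of the 78 members. NRF1 motifs were present in 16 of them (23.2%), against 11.3% of the 13686 promoters of tested genes and 6.47% of all 27025 promoters in the table. A motif of ETS factors such as GABP (CCGGAAGT, both strands) was present in 11 members (15.9%), against 6.83% of tested genes and 4% of all promoters. A motif of YY1 (AAGATGGC, both strands), another factor of nuclear genes for mitochondria, was present in 12 members (17.4%), against 3.94% of tested genes and 2.88% of all promoters. At least 1 of these motifs was found in 36 members (52.2%), against 20.1% of tested genes. Of the 8 members called in any comparison, 7 have a promoter in the table. Of these, 4 hold the NRF1 motif, 0 hold the ETS or YY1 motif and 3 hold none. All 4 are among the sequences shown above, but of the 3 only Mrps30 is. Of the 62 other members with a promoter, 12 hold the NRF1 motif (19.4%). A match describes these letters only and does not show that a factor binds there. Another shared feature is position: 20 of 77 tested members (25.97%) have an oppositely oriented gene whose nearest start lies within 1000 bp upstream, against 12.2% of the 21306 genes tested. With starts that overlap by less than 200 bp counted as well, the number is 27 (35.1%, against 14.2%). Mrpl30 starts 66 bp from Mitd1, Mrpl40 starts 175 bp from Hira, and Mrps12 starts 172 bp from Sars2, the mitochondrial seryl-tRNA synthetase.

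Per length of exon, the members spanned from 1.47 to 50.6 CPM per kb as means over 20 libraries, with a median of 11.5. Mrps21, a small subunit protein with a bacterial counterpart, had the highest level at 50.6 CPM per kb. It was followed by Mrpl12, the stalk protein that contacts translation factors, at 41.5, and by Mrpl34 at 34.9. The lowest tested members were Mrpl33 at 1.47, Mrpl19 at 2.35 and Mrpl47 at 2.48 CPM per kb. The ranges over libraries of neighbours overlap among these 3, as they do among the highest 3. Within each library, however, Mrpl33 lay below Mrpl19, while the order of the other neighbouring pairs changed between libraries. The median level was 13.3 CPM per kb for large subunit genes and 8.12 for small subunit genes. The exon length of a gene is the union over all annotated isoforms, 7.33 kb for Mrpl33 and 0.739 kb for Mrps21, so a gene with long exons that are seldom used gets a low level per length.

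**Figure D1:**
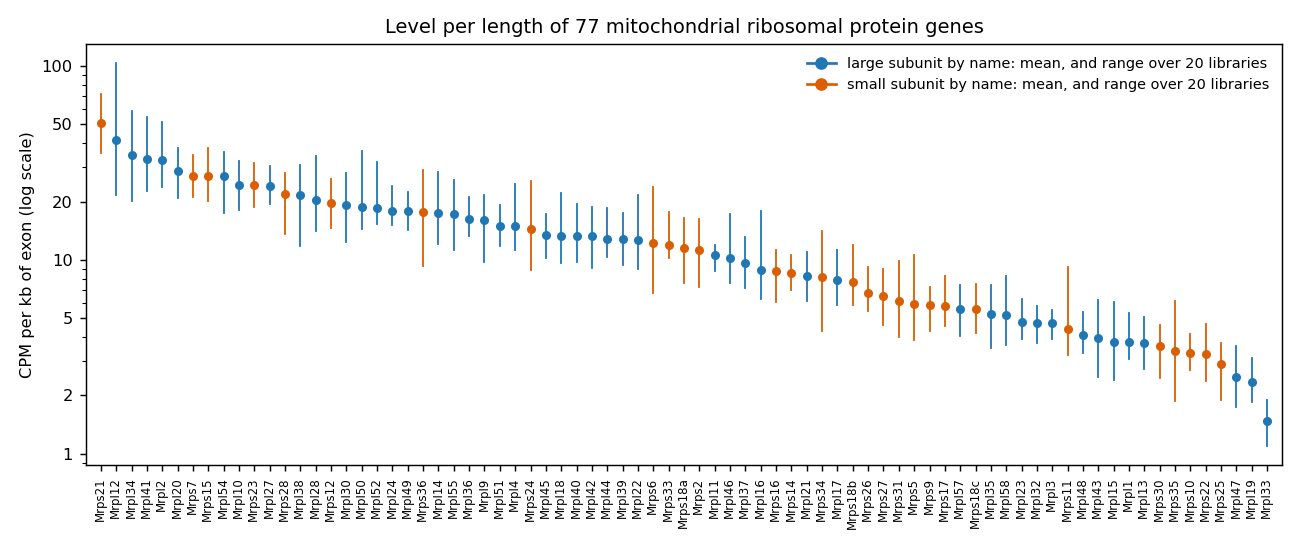
Levels of the 77 tested members as CPM per kb of exon on a log axis, ordered by their mean, where the dot is the mean and the line the range over 20 libraries. Mrps21 is highest at 50.6 and Mrpl33 lowest at 1.47, and the ranges of neighbouring genes overlap.

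Between libraries the members had a median SD of 0.25 on the log2 CPM scale and a lowest SD of 0.13. The largest spreads were those of Mrps34 and Mrps6, both 0.53, and of Mrpl12, 0.48. Other genes overlap 77.8% of the exonic bases of Mrps34, 19.9% of those of Mrps6 and 0% of those of Mrpl12. The median differences of large and small subunit genes from their 20-library means had the same sign in 16 of 20 libraries and lay at most 0.15 (log2) apart. The median difference of the members from their own 20-library mean ranged from -0.29 (log2) in high-fat tea replicate 5 to 0.40 in high-fat tea replicate 4. Per library, the summed CPM of small subunit genes was 0.489 to 0.576 times that of large subunit genes. That ratio was 0.532 ± 0.014 in chow water, 0.541 ± 0.026 in chow tea, 0.527 ± 0.010 in high-fat water and 0.519 ± 0.017 in high-fat tea (SD, n = 5), and the ranges of the 4 groups overlap. Summed large subunit levels were 1444 ± 183 CPM in chow water, 1450 ± 172 in chow tea, 1346 ± 59.5 in high-fat water and 1512 ± 283 in high-fat tea (SD, n = 5), and these groups overlap too. High-fat tea replicate 4 is the library with kidney transcripts, while in replicate 5 no list of another organ took more than 0.0235% of reads.

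**Figure D2:**
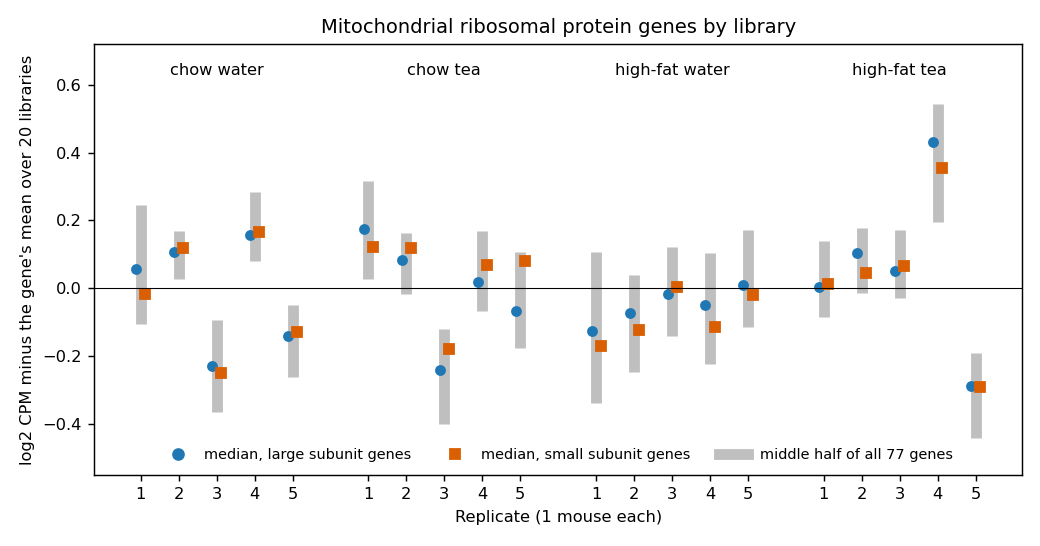
Per library, the median of log2 CPM minus each gene's mean over 20 libraries for large subunit genes (circles) and small subunit genes (squares), with a grey bar for the middle 50% of all 77 genes. High-fat tea replicate 4 is highest (0.43 large, 0.35 small) and replicate 5 of the same group lowest (-0.29 for each), so the 2 extremes fall in 1 group.

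The first comparison asks how the high-fat diet changed these genes in mice that drank water. On the high-fat diet 7 of 77 members fell and 1 rose, by at most 0.62 on the log2 scale, and the median of the 77 was -0.07. The genes that fell were Mrpl9, Mrpl38, Mrpl30, Mrps30, Mrps15, Mrpl17 and Mrpl45, and the gene that rose was Mrpl40. Together they are 10.4% of the tested members, against 15.2% of all genes tested, so the share of called members was not above the background. In the lower direction the shares were 9.09% of members and 7.11% of all genes, and in the higher direction 1.30% and 8.06%. Of the members, 46 lay below 0 and 31 above, and the median of all genes tested was -0.002. Among large subunit genes 1 rose and 5 fell of 48 (median -0.08), and among small subunit genes 0 rose and 2 fell of 29 (median -0.05). With Mrps30 and Mrps18a counted in the large subunit, where their products sit, 1 rose and 6 fell of 50, and with Mrps36 left out as well 1 small subunit gene of 26 fell. Of 46 members with a bacterial counterpart 4 fell and 0 rose (median -0.08), and of 28 tested mitochondria-specific members 3 fell and 1 rose (median -0.01).

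Mrpl9 encodes a large subunit protein with a bacterial counterpart. Its levels were 43.7, 53.2, 41.8, 55.02 and 40.6 CPM in chow water and 26.4, 27.9, 33.4, 32.8 and 31.6 CPM in high-fat water. Every high-fat water library lay below every chow water library. The change was -0.62 (log2, SE 0.14), with an adjusted p of 0.00804. Mrpl9 lies on chromosome 3 of GRCm39 from 94350625 to 94358437 and overlaps Oaz3, on the opposite strand, over 5.81% of its exonic bases. Mrps30, which has no bacterial counterpart, stood at 20.8, 26.4, 23.5, 28.99 and 25.7 CPM in chow water and 17.2, 19.2, 17.96, 16.4 and 19.99 CPM in high-fat water. Here too the groups did not overlap, and the change was -0.47 (SE 0.10) with an adjusted p of 0.007. It lies on chromosome 13 of GRCm39 from 118514917 to 118523788 and overlaps an opposite-strand gene over 9.35% of its exonic bases. For Mrpl30, which has a bacterial counterpart, the libraries held 67.9, 73.5, 56.9, 90.2 and 61.5 CPM in chow water and 48.4, 46.8, 50.2, 40.1 and 54.05 CPM in high-fat water. These groups did not overlap either, with a change of -0.55 (SE 0.14) and an adjusted p of 0.0144. Calls for these 3 genes held when any 1 library of either group was left out. Without the 9 libraries over 0.1% of another organ, Mrpl9 and Mrps30 stayed called. Mrpl30 (adjusted p = 0.133) and the other called members did not.

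Mrpl38, a large subunit gene specific to mitochondria, had 57.7, 62.2, 55.1, 75.9 and 53.9 CPM in chow water and 29.9, 39.3, 42.2, 43.3 and 43.3 CPM in high-fat water. The groups did not overlap, and the change was -0.62 (SE 0.17) with an adjusted p of 0.02, which became 0.0548 without chow water replicate 4 and 0.0592 without high-fat water replicate 1. Mrpl17, with a bacterial counterpart, had 55.4, 63.6, 63.5, 68.2 and 59.02 CPM in chow water and 47.96, 47.5, 50.05, 44.3 and 52.5 CPM in high-fat water. Its groups did not overlap, and the change was -0.35 (SE 0.10) with an adjusted p of 0.0288, which rose to between 0.0545 and 0.0737 without any 1 of chow water replicates 2, 3 and 4 or high-fat water replicates 1, 2 and 4. Lying on chromosome 7 of GRCm39 from 105452413 to 105460306, Mrpl17 shares no exonic bases with another gene.

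Mrps15, a small subunit gene with a bacterial counterpart, had 45.9, 53.5, 44.6, 64.2 and 53.5 CPM in chow water and 37.3, 41.6, 40.8, 34.01 and 44.6 CPM in high-fat water. The groups met at 44.6 CPM, where chow water replicate 3 and high-fat water replicate 5 lay side by side. The change was -0.40 (SE 0.13), with an adjusted p of 0.0401 that lay between 0.062 and 0.109 without any 1 of chow water replicates 2, 4 and 5 or high-fat water replicates 1, 2, 3 and 4. Mrpl45, whose product lies at the exit of the peptide tunnel near the inner membrane, had 30.4, 35.9, 38.3, 38.1 and 31.97 CPM in chow water and 26.5, 26.7, 28.3, 26.4 and 31.9 CPM in high-fat water. High-fat water replicate 5 overlapped the lowest chow library. The change was -0.32 (SE 0.11), with an adjusted p of 0.0481 that lay between 0.0777 and 0.106 without any 1 of chow water replicates 2, 3 and 4 or high-fat water replicates 1, 2, 3 and 4.

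Mrpl40 was the 1 member that rose, and its product is a large subunit protein specific to mitochondria. It had 21.2, 21.02, 17.1, 24.2 and 22.3 CPM in chow water and 34.1, 29.3, 26.9, 22.9 and 27.1 CPM in high-fat water. The lowest high-fat library, at 22.9 CPM, lay below the highest chow library, at 24.2 CPM. The change was 0.41 (SE 0.11) with an adjusted p of 0.0183, which became 0.0602 without high-fat water replicate 1, the library with the highest value. Mrps6, a small subunit gene with a bacterial counterpart, had a larger difference and was not called, with 10.8, 17.6, 16.6, 18.7 and 25.3 CPM in chow water and 36.6, 28.7, 27.3, 19.8 and 24.8 CPM in high-fat water. Its libraries overlapped, and the difference was 0.62 (SE 0.21) with an adjusted p of 0.0525. Of its exonic bases 19.9% lie in Gm49711 on the same strand.

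**Figure D3:**
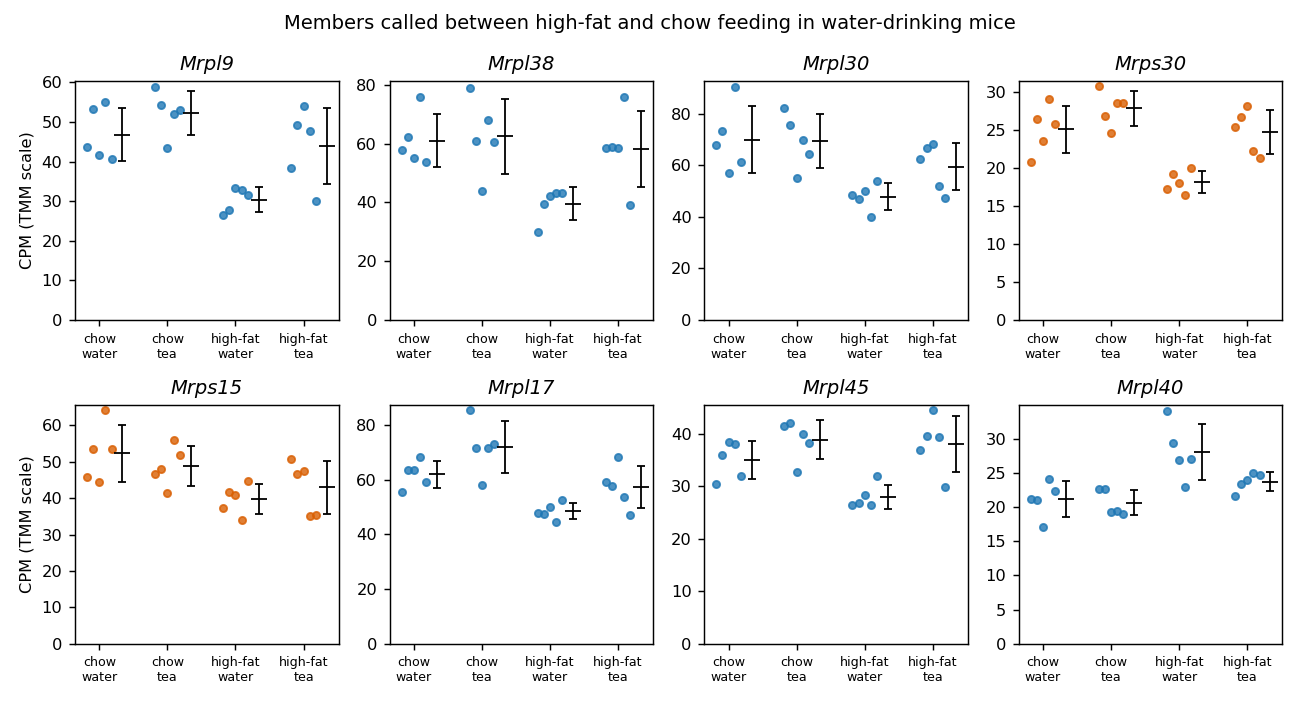
Levels in CPM on the scaled library size for the 8 members called between high-fat and chow feeding in water-drinking mice, with 1 point per mouse and the mean ± SD of 5 mice beside each group (blue, large subunit names; orange, small subunit names). In Mrpl9, Mrpl38, Mrpl30, Mrps30 and Mrpl17 the high-fat water points lie below all chow water points, and Mrpl40 has its highest point, 34.1 CPM, in high-fat water.

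Libraries of the 2 groups did not overlap for 7 members, all lower in high-fat water (9.09% of members, against 12.9% of all genes in either direction and 5.59% in the lower direction). These were the 5 called genes already named as not overlapping, and Mrps35 and Mrps5, which were not called. Mrps35 is named for this overlap after its values were seen, and its difference was -0.62 (SE 0.23, adjusted p = 0.0778). Mrps5, a small subunit protein at the mRNA entry side of the ribosome, had a difference of -0.38 (SE 0.17, adjusted p = 0.145). At an unadjusted p under 0.05 there were 22 members, against 30.8% of all genes. With another tool, DESeq2, 11 members were called lower and 2 higher, which is 16.9% of the members against 21.6% of all genes, and all 8 members called by edgeR were among them. Leaving out chow water replicate 1, the library with pancreas transcripts, gave 8 lower and 1 higher. Without high-fat water replicate 1 the counts were 3 lower and 0 higher, and without chow water replicate 4 they were 3 lower and 1 higher. Without replicate 2 of either group or replicate 4 of high-fat water, 4 members were called lower, while 2 were called higher without replicate 5 of chow water or replicate 4 of high-fat water. With none of the 5 libraries over 1% of another organ, 8 members were called, 7 of them the same genes (10.4%, against 16.9% of all genes). There, Mrpl9 (-0.70), Mrps30 (-0.53) and Mrpl38 (-0.73) differed at least as much as with all libraries. Among the members without exonic overlap with another gene, 5 fell and 1 rose of 45.

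Markers of some cell types also differed between these groups. The 10 adipocyte markers took 0.965% to 5.39% of reads in chow water (4.01 ± 1.79, SD, n = 5) and 2.19% to 3.66% in high-fat water (3.24 ± 0.60). The lowest chow water value is that of replicate 1, the library with pancreas transcripts, and the other 4 libraries, at 4.13% to 5.39%, lay above all high-fat water libraries. The 10 macrophage markers took 0.0325% to 0.175% in chow water and 0.137% to 0.390% in high-fat water, and the 6 fibroblast and progenitor markers 0.0448% to 0.227% and 0.176% to 0.370%. Replicate 1 also held the lowest chow water value of both lists. In the other 4 chow water libraries they took 0.0859% to 0.175% and 0.121% to 0.227%, which overlapped high-fat water. No marker of these 3 lists was at 0 in any group. The part of cell composition in the changes of the members was not tested.

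The second comparison asks how tea changed these genes in mice on the high-fat diet. Tea raised 3 members, Mrps30, Mrpl45 and Mrpl9, and lowered 0 of 77. These are 3.90% of the members, against 4.36% of all genes tested, with 2.06% of all genes called higher and 2.3% lower. The members' median was 0.16 (log2), with 60 above 0 and 17 below, against a median of 0.02 over all genes. This median rested on high-fat tea replicate 4, the library with kidney transcripts: without it, the median was 0.05, and 34 of the 77 lay below 0. Large subunit genes had a median of 0.17 with 2 called of 48, and small subunit genes 0.12 with 1 called of 29. All 3 genes were also among those lower in high-fat water than in chow water, and both comparisons share the high-fat water libraries.

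Mrps30 had 25.4, 26.7, 28.1, 22.2 and 21.3 CPM in high-fat tea, against the high-fat water values given above, which all lay lower. The groups did not overlap, and the change was 0.45 (SE 0.10) with an adjusted p of 0.0242. This call was lost without any 1 of high-fat water replicates 1, 3 and 4 or high-fat tea replicates 2 and 3 (adjusted p 0.05 to 0.0707), and held without high-fat tea replicate 4. Mrpl45 had 36.96, 39.5, 44.6, 39.4 and 29.9 CPM in high-fat tea, and only replicate 5 lay within the range of high-fat water. Its change was 0.44 (SE 0.11) with an adjusted p of 0.0269, which lay between 0.0517 and 0.0767 without any 1 of high-fat water replicates 1, 2, 3 and 4 or high-fat tea replicates 2 and 3. Mrpl9 had 38.4, 49.2, 53.96, 47.9 and 29.98 CPM in high-fat tea, where again only replicate 5 lay within the range of high-fat water. Its change was 0.53 (SE 0.14) with an adjusted p of 0.0418, which lay between 0.0588 and 0.115 without any 1 of the 5 high-fat water libraries or of high-fat tea replicates 2, 3 and 4. For reference, the chow tea libraries held 30.7, 26.8, 24.6, 28.6 and 28.5 CPM of Mrps30 and 58.7, 54.4, 43.5, 52.1 and 53.02 CPM of Mrpl9.

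Without high-fat tea replicate 5, which had the lowest member levels of all libraries, 9 members were called higher and 1 lower, beside 9.26% of all genes. Without high-fat tea replicate 4, 2 were called higher and 1 lower, beside 3.72% of all genes. Without high-fat water replicate 2, 1 was called higher, beside 1.44%. No member was called higher without any 1 of high-fat water replicates 1, 3 and 4 or high-fat tea replicates 2 and 3. In that order, the shares of all genes were 0.975%, 2.36%, 3.0%, 1.53% and 1.19%. With none of the 5 libraries over 1% of another organ, 4.12% of all genes were called. There, 1 member was called higher, Mrps30 at 0.49 with an adjusted p of 0.0365, and 1 lower, Mrps22, which is named here after its values were seen. At an unadjusted p under 0.05 there were 19 members, against 23.6% of all genes, and DESeq2 called 8 higher and 1 lower (11.7% of members, against 12.8% of all genes). Fitted on the 10 high-fat libraries alone, 0 members were called, beside 0.107% of all genes. Adipocyte markers took 1.04% to 5.50% of reads in high-fat tea, macrophage markers 0.0499% to 0.197%, and fibroblast and progenitor markers 0.0522% to 0.224%. The lowest value of each list is that of replicate 4, and in the other 4 libraries the lists took 3.59% to 5.50%, 0.104% to 0.197% and 0.130% to 0.224%. Fibroblast and progenitor markers averaged 0.276% ± 0.069 in high-fat water and 0.149% ± 0.065 in high-fat tea (SD, n = 5). The part of cell composition was not tested.

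Mrpl12 shows how 1 library shaped this comparison. It had 48.2, 59.8, 69.4, 52.4 and 56.1 CPM in high-fat water and 55.02, 61.8, 57.8, 159 and 33.2 CPM in high-fat tea, where replicate 4 stood apart. The difference was 0.36 (SE 0.32, adjusted p = 0.544), and it was -0.14 without high-fat tea replicate 4. Mrpl44, with a fold related to an RNA-cutting enzyme, moved from 0.12 to -0.01 without that library, and Mrpl58, a peptidyl-tRNA hydrolase built into the large subunit, from 0.06 to -0.11. Mrps6 had 18.6, 12.04, 15.2, 16.8 and 23.9 CPM in high-fat tea, overlapping high-fat water through replicate 5, and its difference was -0.66 (SE 0.21, adjusted p = 0.0744). Mrps25 had 23.7, 22.5, 24.1, 20.7 and 24.6 CPM in high-fat water and 18.6, 20.1, 16.5, 19.7 and 19.3 CPM in high-fat tea, which did not overlap, with a difference of -0.30 (SE 0.13, adjusted p = 0.186). Mrps25 is a small subunit gene specific to mitochondria, and 69.8% of its exonic bases lie in Nr2c2 on the opposite strand, so its count rests on the other bases. Mrps25 and Mrps30 were the 2 members whose groups did not overlap here (2.60%, against 5.55% of all genes).

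**Figure D4:**
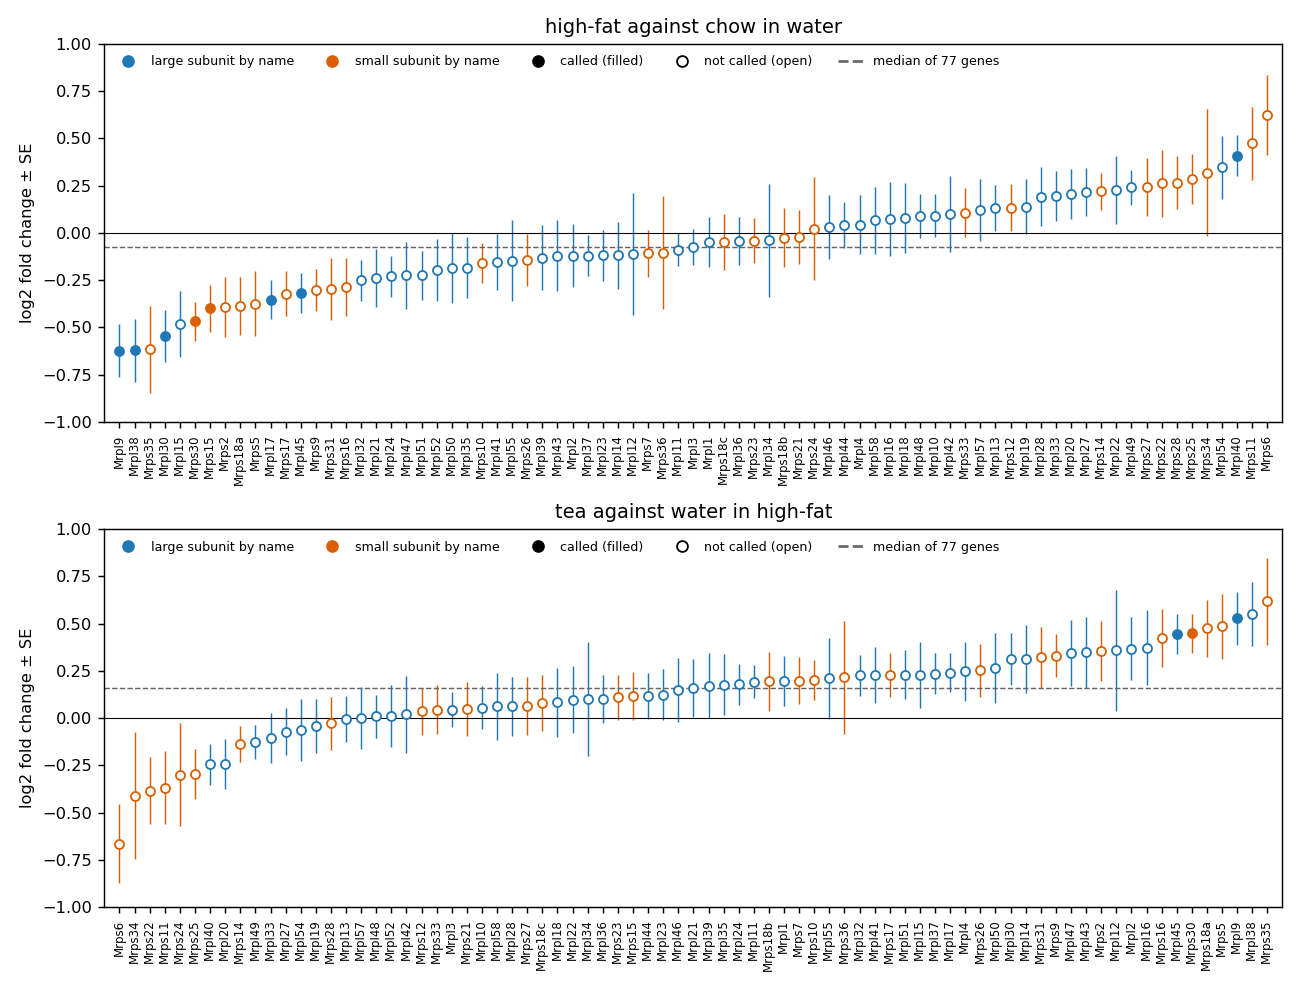
Log2 fold change ± SE of each of the 77 tested members for high-fat against chow in water-drinking mice (top) and tea against water on the high-fat diet (bottom), ordered by value, filled where called, with the median as a dashed line. The medians lie at -0.07 and 0.16, and the panels share the high-fat water libraries.

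The third comparison asks what tea did in mice on chow. No member was called, beside 0.0235% of all genes (5 of 21306). DESeq2 and limma voom also called 0 members, beside 1.33% and 0.0282% of all genes. At an unadjusted p under 0.05 there were 3 of 77 members, against 2634 of the 21306 genes tested. The median was 0.002, against -0.03 over all genes. Mrpl41, a large subunit gene specific to mitochondria, had the lowest p, with 20.03, 32.3, 28.00, 31.3 and 25.6 CPM in chow water and 48.7, 34.9, 28.97, 35.7 and 36.3 CPM in chow tea. Its groups overlapped, and the difference was 0.43 (SE 0.15, adjusted p = 0.262). Mrps6 had 10.4, 14.3, 10.8, 13.03 and 11.8 CPM in chow tea, below chow water in the mean with overlapping libraries, and differed by -0.56 (SE 0.21, adjusted p = 0.284). Mrps25 differed by -0.29 (SE 0.13, adjusted p = 0.379).

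In the fourth comparison, high-fat against chow feeding among tea drinkers, 0 members were called, beside 0.178% of all genes (38 of 21306). DESeq2 and limma voom called 0 members as well, beside 5.23% and 0.343% of all genes. An unadjusted p under 0.05 was found for 10 of 77 members, against 3482 of the 21306 genes tested. The median was 0.08 against 0.07 over all genes, and it was -0.05 without high-fat tea replicate 4. Mrpl17 had the lowest p, with 85.3, 71.5, 58.1, 71.5 and 73.1 CPM in chow tea and 59.3, 57.8, 68.3, 53.5 and 47.2 CPM in high-fat tea. The groups overlapped through high-fat tea replicates 1 and 3 and chow tea replicate 3, and the difference was -0.33 (SE 0.10, adjusted p = 0.153). Mrps12, whose product forms part of the decoding centre, differed by 0.34 (SE 0.13, adjusted p = 0.208), and Mrps6 by 0.52 (SE 0.21, adjusted p = 0.238). Mrpl9 differed by -0.26 (SE 0.14, adjusted p = 0.379) and Mrps30 by -0.17 (SE 0.10, adjusted p = 0.428).

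The interaction asks whether the tea difference depended on the diet, and it is positive where tea against water was higher on the high-fat diet than on chow. It called 0 members, beside 0.0657% of all genes (14 of 21306). DESeq2 and limma voom called 0 members too, beside 3.47% and 0.0282% of all genes. At an unadjusted p under 0.05 there were 3 of 77 members, against 3196 of the 21306 genes tested. The 3 were Mrpl24 at 0.37 (SE 0.15, adjusted p = 0.26), Mrpl38 at 0.52 (SE 0.24, adjusted p = 0.311) and Mrps5 at 0.53 (SE 0.24, adjusted p = 0.316). Mrpl9 stood at 0.37 (SE 0.20, adjusted p = 0.407) and Mrps30 at 0.30 (SE 0.15, adjusted p = 0.351), so a dependence of their tea difference on diet did not pass the test. The median was 0.16 against 0.05 over all genes, and 0.03 without high-fat tea replicate 4. Mrpl24, which overlaps Rrnad1 on the opposite strand over 26.3% of its exonic bases, also had its highest high-fat tea value in that library.

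Across the 4 group means, high-fat water was the lowest group for 41 of the 77 members and high-fat tea the highest for 34. Without high-fat tea replicate 4 the first count was 39, and high-fat tea was highest for 7 members. Among large subunit genes high-fat water was lowest for 26 of 48, and among small subunit genes for 15 of 29. These counts describe means only, since most members' groups overlap. The same counts were not made over all genes tested, so no background stands beside them. Of the 8 members followed whatever their result, Mrpl3, a protein near the peptidyl transferase centre, had the smallest SD over libraries (0.14, log2 scale), with 31.3 ± 3.65 CPM in chow water, 33.6 ± 2.55 in chow tea, 29.8 ± 1.87 in high-fat water and 30.7 ± 3.35 in high-fat tea (SD, n = 5). Mrps7, a small subunit protein with a bacterial counterpart, had 55.6 ± 5.44, 58.9 ± 7.22, 51.6 ± 5.08 and 59.2 ± 11.0 CPM in the same order. Mrps2, also of bacterial type, had 32.9 ± 6.35, 41.0 ± 4.36, 25.05 ± 4.12 and 32.1 ± 6.66 CPM, and its difference was -0.39 (SE 0.16, adjusted p = 0.0993) for diet in water and 0.36 (SE 0.16, adjusted p = 0.181) for tea on the high-fat diet. Mrps34, specific to mitochondria, had 15.8 ± 6.07, 16.9 ± 8.99, 19.6 ± 6.60 and 14.8 ± 2.92 CPM. Other genes overlap 77.8% of its exonic bases, and Mapk8ip3 on the opposite strand overlaps 63.4%, so its count rests on the other bases. None of these 4 genes was called in any of the 5 comparisons.

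Other genes of mitochondrial translation are given as lists, with the number called of the number tested, beside 15.2% of all genes called for diet in water and 4.36% for tea on the high-fat diet. For diet in water, 0 of 5 mitochondrial ribosome subunits outside the naming rule and 0 of 13 translation factors were called, with medians of -0.07 for both. Of 20 aminoacyl-tRNA synthetase and amidotransferase genes, 1 rose and 2 fell, among them Nars2, the asparagine enzyme (-0.51, adjusted p = 0.024). Of 27 assembly and rRNA modification genes, 2 rose and 1 fell, among them Mrm2, a methyltransferase of the large ribosomal RNA (0.54, adjusted p = 0.0344), and Mterf4, which partners a methyltransferase in assembly (-0.55, adjusted p = 0.0208). Of 21 genes of mitochondrial transcription and mRNA handling, 0 rose and 4 fell, with a median of -0.26. Hsd17b10, a subunit of the enzyme that trims tRNAs from mitochondrial transcripts and also an enzyme of isoleucine breakdown, fell by 1.65 (SE 0.28, adjusted p = 0.00133), and Tfb2m, which opens mitochondrial promoters, fell by 0.58 (SE 0.12, adjusted p = 0.0053). With any 1 library left out, 3 to 6 genes of this list were called lower. The assembly list then had 0 to 1 called higher and 0 to 3 lower, and the synthetase list 0 to 1 higher and 0 to 2 lower. Of all genes, 8.69% to 15.8% were called in these settings. Of 78 cytosolic ribosomal protein genes 5 fell and 77 lay below 0, at a median of -0.44. That median rested in part on chow water replicate 1, the library with pancreas transcripts. This library stood 1.05 (log2) above the 20-library mean in the median cytosolic gene. Without it, the median was -0.18, with 75 of the 78 genes still below 0 and 3 called lower. Without chow water replicate 5, 14 were called lower. Leaving out any 1 of high-fat water replicates 1, 2, 3 and 5 left 1 or 2.

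For tea on the high-fat diet, 0 of the 5 other subunits, 0 of 13 translation factors and 0 of 20 synthetase and amidotransferase genes were called. Of 27 assembly genes 2 rose, Mterf4 by 0.59 (SE 0.15, adjusted p = 0.0361) and Ngrn, which takes part in large subunit assembly, by 0.38 (SE 0.11, adjusted p = 0.0486). Of 21 transcription and mRNA handling genes 3 rose, among them Tfb2m by 0.57 (SE 0.12, adjusted p = 0.0178) and Hsd17b10 by 1.26 (SE 0.27, adjusted p = 0.019). With any 1 library left out, 0 to 2 assembly genes and 0 to 5 transcription and mRNA handling genes were called higher, beside 0.975% to 9.26% of all genes. Without high-fat tea replicate 4 these were 0 and 2, beside 3.72%. The 13 protein-coding mRNAs of mitochondrial DNA had a median of 0.69 with 0 called and 13 above 0, and for diet in water their median was -0.34 with 0 called and 11 below 0. Their share of reads overlapped between the groups, at 3.29% to 5.88% in high-fat water and 3.12% to 9.81% in high-fat tea. For diet among tea drinkers, 1 gene of the transcription list was called, Mtpap, the mitochondrial poly-A polymerase, which fell by 0.48 (SE 0.09, adjusted p = 0.0294), and for tea on chow 0 genes of any list were called. The 2 mitochondrial ribosomal RNAs, mt-Rnr1 and mt-Rnr2, were not called in any comparison, and poly-A selection captures them only in part.

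**Figure D5:**
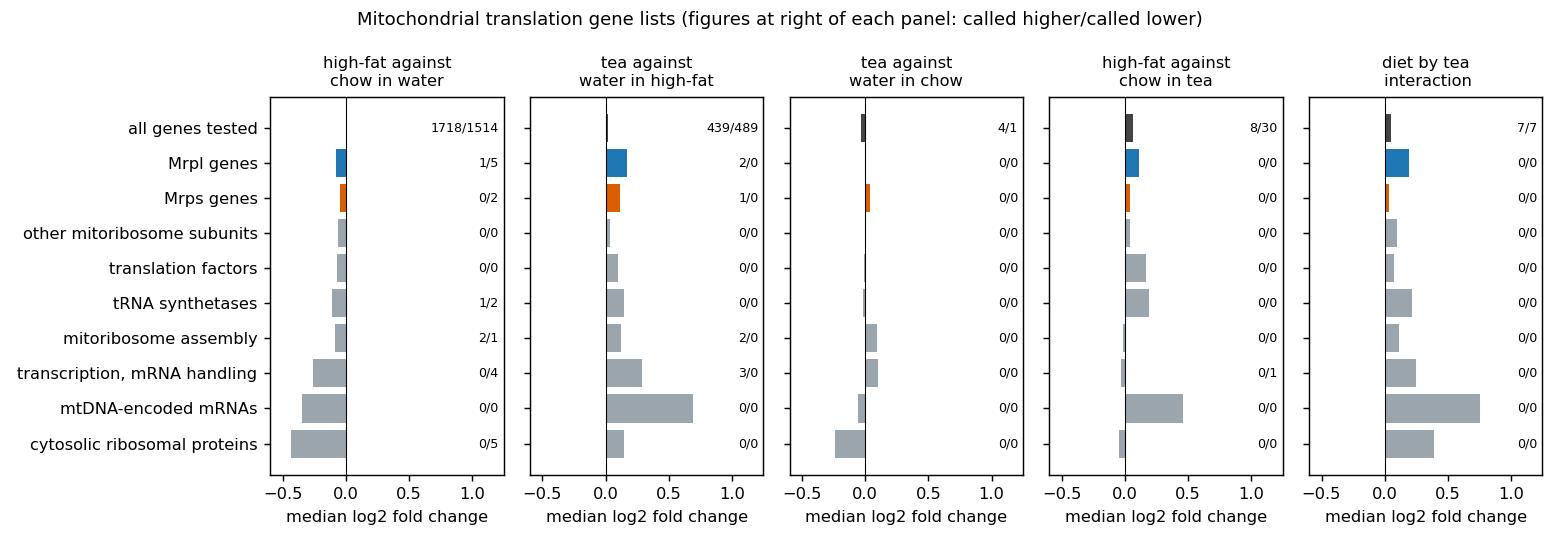
Median log2 fold change of each gene list in the 5 comparisons, with the number of genes called higher and lower at the right of each panel, for all genes tested, members with large (blue) and small (orange) subunit names and 7 lists of related genes (grey). The member medians lie between -0.08 and 0.19, and the transcription and mRNA handling list has 4 genes called lower for diet in water and 3 called higher for tea on the high-fat diet.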

How the data were processed

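The authors deposited raw read counts for every gene, as 1 table per library. Tools named in the submitters' processing notes are fastp 0.23.2, HISAT2 2.2.1 and featureCounts 2.0.6. Per the file headers, reads were counted on the GENCODE vM32 annotation of GRCm39, while the processing notes name mm10. Pairs were not counted as 1 fragment, and 68.1% to 72.2% of the counts from 1 to 20 were even, so most fragments entered as 2 reads. The library kit keeps strand, per the labels, and the counting did not use it. The labels give 5 mice per group, and the p-values measure the spread between these samples. The lowest chi-square per gene between libraries of a group was 62.9 over 40 pairs, so no library repeated another of its group. Pairs across groups were not compared in this way.

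Genes were filtered with filterByExpr of edgeR 4.0.16 (a minimum count of 10 in 5 libraries and of 15 in total), which kept 21306 and removed 35499. The edgeR quasi-likelihood test was fitted to 4 group means over 20 libraries, with trimmed mean of M values scaling and Benjamini-Hochberg adjustment over all genes tested, in R 4.3.3. Standard errors (SE) come from the log2 fold change and its F statistic. Alternatives were DESeq2 1.42.0, its size factors, limma 3.58.1 (voom), no filter, a replicate block, only the groups compared, and leaving out each library. Leaving out the 5 or 9 libraries with transcripts of other organs was chosen after seeing the data. The steps were tested on simulated counts.

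The members and lists were chosen with earlier results of these data known. Named genes are, per comparison, called members of mean log2 CPM 1 or more, up to 5 with the strongest rise and 5 with the strongest fall, or the 3 with the lowest p where fewer than 3 were called. Added are the 3 highest and 3 lowest levels per length, the 3 largest spreads, 8 members followed in every comparison (Mrpl12, Mrpl3, Mrpl44, Mrpl58, Mrps12, Mrps2, Mrps7 and Mrps34) and, per list, up to 2 called genes or the 1 with the lowest p. The synthetase gene called higher is not reported here by name.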

Additional observations from a re-analysis of the deposited data

Results flagged for a closer look

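Of 132 groups of 5 libraries examined, 6 held a library far from the others of its group, and chance alone gives such a gap in about 1 in 20 groups. Mrpl12 stood at 158.71 CPM in high-fat tea replicate 4, against 33.2 to 61.8 CPM in the other high-fat tea libraries. Mrpl24 stood at 53.407 CPM in the same library, against 37.8 to 40.8 CPM. Also in that library, small subunit genes had 0.48866 times the summed CPM of large subunit genes, against 0.522 to 0.530 times in the rest of its group. The large subunit sum includes Mrpl12, so this flag is not independent of that of Mrpl12. High-fat tea replicate 4 is the library with kidney transcripts, where 8 kidney markers took 2.60% of reads. The part of kidney transcripts in these values was not tested. Mrps5 stood at 25.313 CPM in high-fat water replicate 1, the lowest of its group, against 31.5 to 33.3 CPM. In chow tea replicate 3 the small subunit genes summed to 647.65 CPM, against 795.5 to 849.4 CPM in the other chow tea libraries, and their median difference from the 20-library mean was -0.17874 (log2), against 0.07 to 0.12.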

How the results depend on the processing

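For diet in water, the counts of members called higher and lower (1 and 7) became 0 and 4 with no filter and 2 and 11 by DESeq2. They were 0 and 3 without the 9 libraries over 0.1% of another organ, and the higher count was 0 with only the groups compared. In the same order, 5.74%, 21.6%, 9.2% and 13.6% of all genes were called. For tea on the high-fat diet, the counts were 3 and 0. The higher count was 0 with no filter, with only the groups compared and without the 9 libraries. The counts were 8 higher and 1 lower by DESeq2, and 1 and 1 without the 5 libraries over 1%. In the same order, 1.08%, 0.107%, 0.0583%, 12.8% and 4.12% of all genes were called. Leaving out 1 library gave 0 to 2 higher and 3 to 8 lower for diet in water, where 8.69% to 15.8% of all genes were called. For tea on the high-fat diet it gave 0 to 9 higher and 0 to 1 lower, beside 0.975% to 9.26% of all genes. In the other 3 comparisons no member was called under any of these alternatives. DESeq2 called 1.33% of all genes for tea on chow, 5.23% for diet among tea drinkers and 3.47% for the interaction. Where calls were lost with fewer libraries, fewer samples entered the fit, and otherwise the cause was not tested. Depth was 53047057 to 93314761 reads in genes per library, and counting error was not set against the spread between mice.

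With a replicate block, members called lower for diet in water numbered 4 and members called higher for tea on the high-fat diet 0. Of all genes, 12.3% and 2.97% were called there. Replicate numbers pair nothing by the labels, same-numbered libraries correlated over 0.1 in 9 of 30 pairs (range -0.27 to 0.475), and 5 were closest to their own number. Mrps7 for diet among tea drinkers, 0.0063 with the settings of the report, was -0.00042 with the block and -0.0048 by limma voom.

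Differences of members that were not called changed sign under some settings. Without the 5 and the 9 libraries respectively, Mrpl12 was 0.10 and 0.075 for diet in water, -0.22 and -0.18 for tea on the high-fat diet, -0.29 and -0.30 for diet among tea drinkers, and -0.39 and -0.38 for the interaction. Mrpl58 was -0.12 and -0.18 for tea on the high-fat diet and -0.057 and -0.056 for the interaction, and Mrps12 was -0.037 and -0.10 for tea on the high-fat diet, with -0.0084 for the interaction without the 9. Mrpl44 was -0.022 and -0.064 for diet among tea drinkers, -0.051 and -0.16 for the interaction, and -0.049 without the 9 for tea on the high-fat diet. Mrps7 was -0.14 and -0.24 for diet among tea drinkers, -0.016 and -0.056 for the interaction, and -0.049 without the 9 for tea on the high-fat diet. Mrps2 for the interaction was -0.23 and -0.25, and -0.0028 by limma voom.

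Leaving out 1 library, Mrpl12 ranged from -0.25 to 0.013 for diet in water, -0.14 to 0.54 for tea on the high-fat diet, -0.13 to 0.16 for tea on chow, -0.26 to 0.42 for diet among tea drinkers and -0.15 to 0.53 for the interaction. Mrpl44 ranged from -0.0079 to 0.071, -0.012 to 0.20, -0.0056 to 0.080, -0.0060 to 0.21 and -0.048 to 0.17 in the same order. Mrpl58 ranged from -0.017 to 0.11 for diet in water and -0.11 to 0.18 for tea on the high-fat diet, where Mrpl3 ranged from -0.010 to 0.097 and Mrps12 from -0.042 to 0.11. Mrps34 ranged from -0.18 to 0.31 for tea on chow and -0.34 to 0.087 for diet among tea drinkers, Mrps7 from -0.074 to 0.097 for the latter, and Mrps2 from -0.063 to 0.14 for the interaction.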
